A study of Homo sapiens with 16 samples.

Results

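Peaks listed on the patch and alternate sequences of the human genome were examined in ChIP-Seq of 3 NF-κB subunits in T47D cells, a cell line of luminal A, estrogen receptor-positive breast cancer. The members were all listed intervals whose sequence name was neither a chromosome, the mitochondrial genome nor a scaffold of the KI270 or GL000 series. They numbered 71134 of the 6265869 intervals in the 12 peak lists, or 1.14%, after 13 repeated rows had been removed. Of these, 70145 were up to 5000 bp long and 989 were longer, and both kinds were treated separately.

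The cells had been transduced with lentivirus carrying shRNAs against DAB2IP or with the empty vector control, and both conditions were selected with puromycin. Chromatin was fixed with disuccinimidyl glutarate and formaldehyde and immunoprecipitated with antibodies to RELA (p65), RELB or NFKB2. Each of the 6 groups, knockdown or control for each antibody, had 2 libraries, called replicates 1 and 2. The 4 input libraries of the series were not analysed here. The labels name 1 cell line and do not say whether the replicates came from separate transductions, so the spread between them may be technical. The level of DAB2IP itself cannot be read from peak lists.

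NF-κB subunits bind DNA as dimers. RELA acts mainly in the canonical arm of the pathway, whereas RELB and the product of NFKB2 act in the noncanonical arm, and DAB2IP is a RasGAP that is known to restrain NF-κB signaling. The GRCh38 reference carries, beside the chromosomes, extra copies of some loci. Alternate loci hold other versions of stretches that differ strongly between people, such as the haplotypes of the major histocompatibility complex (MHC), where the HLA genes of antigen presentation lie, and patches hold corrections or additions made after the first release. A read from such a locus can match the chromosome and the extra copies equally well, and an aligner that knows every copy has to place it on 1 of them or give it a low mapping quality.

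The 332 sequences comprised 7 MHC haplotypes, 264 other alternate loci and 61 patches whose names start with CHR_HG. Intervals up to 5000 bp were found on 331 of them. The other alternate loci held 43984 of these intervals (62.7%), the CHR_HG patches 19678 (28.1%) and the MHC haplotypes 6483 (9.24%). The positions in the lists run along the whole chromosome, so that the alternate stretch of each sequence is seen as a segment. From the first to the last interval up to 5000 bp, the segments had a median length of 35.8 kb and together spanned 81.9 Mb.

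The lists were dominated by a few long sequences. CHR_HG76_PATCH, with a segment of 6.18 Mb, held 11206 intervals over the 12 lists. CHR_HSCHR15_4_CTG8 followed with 6252 intervals in a segment from 27965796 to 32955888 of chromosome 15. CHR_HSCHR17_7_CTG4 held 3804 intervals between 35934880 and 38393401 of chromosome 17, and CHR_HSCHR16_1_CTG1 held 2683 between 14606255 and 17003521 of chromosome 16. These 4 sequences carried 34.1% of the intervals. The next among the 10 sequences with most intervals outside the MHC were CHR_HG926_PATCH (1621), CHR_HSCHR17_2_CTG5 (1525), CHR_HSCHR5_2_CTG1_1 (1475), CHR_HSCHR8_9_CTG1 (1174), CHR_HG30_PATCH (1166) and CHR_HSCHR15_6_CTG8 (886). At the other end, 41 sequences had 12 or fewer intervals in all lists together, and only 150 of the 331 had an interval in every library.

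The number of intervals up to 5000 bp was lower in the knockdown libraries of each antibody, but for RELA and RELB this rested largely on 1 library each. For RELA, the knockdown libraries listed 1039 and 5605 and the control libraries 6807 and 6972. For RELB, the knockdown libraries listed 867 and 6302 against 6712 and 6653 in control. For NFKB2, they listed 6970 and 6499 against 7962 and 7757. The groups did not overlap for any antibody. Knockdown over control, the log2 ratio of geometric means was -1.51 with the RELA antibody, -1.52 with RELB and -0.22 with NFKB2, each with an exact two-sided permutation p = 0.333, the smallest that 2 against 2 libraries allow. Without knockdown RELA replicate 1 the ratio was -0.30, and without knockdown RELB replicate 1 it was -0.08. Those 2 libraries had the shortest lists of the series on all sequences, with 107107 and 76337 intervals against 526537 to 718820 in the other 10. The NFKB2 lists on all sequences did not overlap either, with 583512 and 675894 intervals with knockdown and 718820 and 685460 in control. Knockdown RELA replicate 2 listed 696770, more than both RELA controls (535895 and 526537). Knockdown RELB replicate 2 listed 560395, between the RELB controls (565827 and 533315).

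The covered bases gave another order. Intervals up to 5000 bp covered 0.198 and 1.74 Mb in the RELA knockdown libraries and 1.43 and 1.504 Mb in the RELA controls, so that the groups overlapped. In the RELB libraries they covered 0.161 and 1.38 Mb with knockdown and 1.48 Mb in both controls. In the NFKB2 libraries they covered 1.48 and 1.87 Mb with knockdown and 1.78 and 1.70 Mb in control, again with overlap. The libraries with the most covered bases for RELA and NFKB2, knockdown replicate 2 of each, were also the only ones with intervals over 5000 bp, which are not counted here.

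Relative to the length of each list, the share on patch and alternate sequences differed less. In the RELA libraries it was 0.970% (95% confidence interval 0.912 to 1.03, exact binomial) and 0.807% (0.786 to 0.828) with knockdown and 1.27% (1.24 to 1.30) and 1.32% (1.29 to 1.36) in control. In the RELB libraries it was 1.14% and 1.12% with knockdown and 1.19% and 1.25% in control. In the NFKB2 libraries it was 1.19% and 0.964% with knockdown and 1.11% and 1.13% in control. The RELA and RELB groups did not overlap, the NFKB2 groups did. The difference of means, knockdown minus control, was -0.41 percentage points for RELA and -0.087 for RELB (both exact two-sided permutation p = 0.333, the smallest possible), and -0.040 for NFKB2 (exact permutation p = 1). Without knockdown NFKB2 replicate 2 the NFKB2 difference was 0.075, with the sign turned. That library and knockdown RELA replicate 2 had the lowest share of their antibody. In these libraries intervals over 5000 bp, which are not counted in the share, covered 31.7% and 28.8% of the segments. On chromosomes such intervals covered 47.7 and 50.1 Mb. Their effect on the shares was not tested, and knockdown RELA replicate 1 had one of the 2 shortest lists. The intervals cover counting error only.

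**Figure D1:**
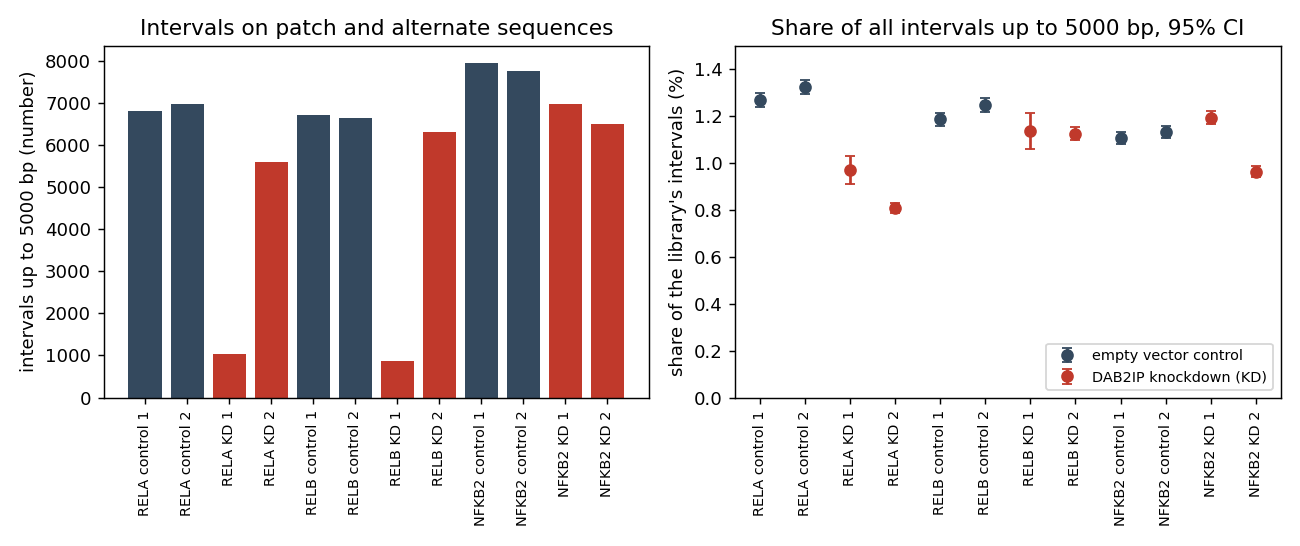
Left, bars give the number of intervals up to 5000 bp on patch and alternate sequences in each of the 12 libraries, from 867 in knockdown (KD) RELB 1 to 7962 in control NFKB2 1. Right, points give these intervals as a percentage of the library's intervals up to 5000 bp on all sequences, with exact 95% binomial intervals, and both RELA knockdown libraries (0.970 and 0.807%) lie below both RELA controls (1.27 and 1.32%).

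Intervals on these sequences were built on very few fragments. A narrowPeak row gives a fold enrichment and a p-value at the summit, and from both the number of sequenced fragments there and the background expected by the peak caller can be solved. This gave whole fragment numbers, within 0.005 of the listed -log10 p, for 10 libraries, but not for replicate 1 of the RELA and RELB knockdown, the libraries with the shortest lists. In the 10 libraries, 48.7 to 56.6% of intervals up to 5000 bp on patch and alternate sequences had a single fragment at the summit (median 53.5%), against 3.73 to 12.2% on chromosomes (median 5.31%). The median was 1 or 2 fragments per library on patch and alternate sequences and 3 or 4 on chromosomes. The median background was 0.171 to 0.227 fragments against 0.576 to 1.07. Background at the lowest value that occurred commonly in a list, 0.0377 to 0.0706 fragments, was found for a median of 14.2% of intervals on patch and alternate sequences and 0.515% on chromosomes. On patch and alternate sequences this share was 1.68% in knockdown RELA replicate 2 and 2.03% in knockdown NFKB2 replicate 2, the libraries with intervals over 5000 bp. In the others of the 10 it was 10.7 to 15.6%. The median fold enrichment in these 10 libraries was 1.81 to 1.89 on patch and alternate sequences and 2.16 to 2.24 on chromosomes. The libraries with the shortest lists went the other way, with 2.88 against 2.50 in knockdown RELA replicate 1 and 3.05 against 2.65 in knockdown RELB replicate 1. The median length was 147 to 153 bp over the 12 libraries, shorter than the 162 to 195 bp on chromosomes.

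Intervals that passed a q-value of 0.05 were rare, yet more frequent here than on chromosomes. Between 2 and 25 intervals per library passed, 144 in all, of which 50 were in knockdown and 94 in control libraries. The RELA libraries had 2 and 8 such intervals with knockdown and 21 and 25 in control, the RELB libraries 3 and 18 against 16 and 14, and the NFKB2 libraries 13 and 6 against 12 and 6. RELA was thus the antibody whose groups stood apart, and its knockdown replicate 1 also had one of the shortest lists. The same held on chromosomes, where 44 and 113 intervals passed in the RELA knockdown libraries and 150 and 184 in control, while the groups overlapped for RELB (79 and 203 against 167 and 140) and for NFKB2 (124 and 104 against 115 and 117). As a share of the intervals up to 5000 bp, 0.205% passed over the 12 lists together, against 0.0315% of the intervals on all sequences. Per library the share was 0.0773 to 0.359%, against 0.0156 to 0.105% on chromosomes, and it was 3.29 to 10.8 times that on chromosomes, higher in 12 of 12 libraries. The median log2 ratio was 2.99 (exact two-sided permutation within libraries, p = 0.0156, the smallest that 12 libraries allow). At a -log10 q of at least 2 the median was 1.95. This counts the 12 libraries as independent, although the series lists 1 input for the 3 antibodies of a condition and replicate number. With these 4 sets as units the mean was 2.84 on the log2 scale, and an exact two-sided permutation gave p = 0.125, the smallest that 4 units allow. The exact 95% intervals of single libraries were wide, for example 0.0233 to 0.694% for the 2 intervals of knockdown RELA replicate 1. Of the intervals that passed q on any sequence, 7.29% lay on patch and alternate sequences, which held 1.12% of all intervals up to 5000 bp.

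The 144 intervals formed 136 regions on 51 sequences, and 131 of these regions passed q in a single library. Outside CHR_HG2062_PATCH, the 133 intervals with whole fragment numbers had 4 to 47 fragments at the summit (median 5), and the highest -log10 q was 5.65. A region on CHR_HG926_PATCH (22968637 to 22968853) passed in control RELA replicate 2 with 6 fragments on a background of 0.0706. Regions on CHR_HSCHR6_MHC_DBB_CTG1 (31220410 to 31220717) and CHR_HSCHR1_3_CTG32_1 (243820431 to 243820714) passed in the same library, also with 6 fragments each, on 0.0853 and 0.0995. Many of these q-values thus rested on a handful of fragments. The background was close to 0 in the regions named here, but it was 15.4 fragments at a region of CHR_HG2002_PATCH that passed in control RELB replicate 1.

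The exception was a 175-bp region of CHR_HG2062_PATCH, between 56821836 and 56822010, which was listed in 5 of 6 knockdown libraries and in no control library. With the RELA antibody its -log10 q was 9.91 in knockdown replicate 2. With RELB it was 17.9 and 28.4 in knockdown replicates 1 and 2, and with NFKB2 it was 13.4 and 33.7. In each of the 5 libraries it had the highest -log10 q of all intervals on patch and alternate sequences, the next interval on another such sequence reaching 2.45 to 5.65. On all sequences it ranked 4th to 49th in these libraries.

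Fragments were plentiful at this place. The summit held 81 fragments in knockdown RELA replicate 2, 158 in knockdown RELB replicate 2, and 127 and 145 in the NFKB2 knockdown libraries, on backgrounds of 27.5, 48.0, 48.3 and 36.7 fragments, and the fold enrichment over the 5 libraries was 2.59 to 3.87. No interval was listed there, at any p-value the lists hold, in knockdown RELA replicate 1 or in any of the 6 control libraries. At q up to 0.05 it was the only member called in both knockdown and neither control library, 1 of 49 regions for RELB and 1 of 36 for NFKB2. On all sequences, 0.873% of RELB regions and 2.22% of NFKB2 regions at that q had this pattern, so that 1 member is near the background by number. No region passed q in both control and neither knockdown library of any antibody. For RELA, no region passed q in both knockdown and neither control library. The region was named by a rule that uses this pattern, so its values are a description.

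A neighbouring region of the same patch, from 56823617, was listed in both conditions. It was called in 11 libraries, all but knockdown RELA replicate 1, with fold enrichments of 1.15 to 1.81 and 94 to 234 fragments at its summits in the libraries with whole fragment numbers. It passed q in knockdown RELA replicate 2 (-log10 q 1.58) and knockdown NFKB2 replicate 2 (3.13), while the highest value in a control library was 0.98. The patch as a whole held 84 intervals up to 5000 bp in a segment of 34.5 kb, with 5, 6, 9, 8, 6 and 12 in the knockdown libraries and 9, 6, 10, 5, 4 and 4 in control, so that the conditions overlapped in the number of intervals.

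Regions with q up to 0.05 in 2 libraries were found at 3 further places. On CHR_HG2002_PATCH, the region at 228578967 to 228579321 passed in control RELA replicate 2 with 17 fragments and control RELB replicate 2 with 15, and was listed below that threshold in 2 knockdown and 2 control libraries. A second region of that patch, 228631712 to 228631884, passed in both replicates 1 of RELB, the control having 47 fragments on 15.4. On CHR_HSCHR15_5_CTG8, the region at 82571360 to 82571711 passed in knockdown RELA replicate 1 and in knockdown NFKB2 replicate 1, there with 4 fragments on 0.0711. In none of the 3 did the libraries that passed make up both replicates of a group. The remaining regions named by the rule passed in 1 library each, knockdown RELB replicate 1 on CHR_HSCHR5_2_CTG1_1 (69325885 to 69326137, -log10 q 5.65) and knockdown RELA replicate 1 on CHR_HSCHR6_MHC_SSTO_CTG1 (31275065 to 31275293, 5.33).

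Without the q threshold, the share of regions that recurred between libraries was above that over all sequences in each pattern that was counted, which was not tested. Intervals up to 5000 bp that shared at least 1 bp were merged to regions within the 4 libraries of an antibody. Among 15711 RELA regions, 120 (0.764%) were called in both knockdown and neither control library, against 0.57% of regions on all sequences. In both control and neither knockdown library there were 1223 (7.78%), against 2.5%. Among 15482 RELB regions these counts were 88 (0.568%) and 1110 (7.17%), against 0.351% and 3.01%. Among 19423 NFKB2 regions they were 639 (3.29%) and 939 (4.83%), against 2.1% and 2.95%. Control-only regions outnumbered knockdown-only regions with each antibody, and for RELA and RELB the knockdown group included a library with one of the 2 shortest lists. Intervals over 5000 bp were left out, so a place that only such an interval covered counted as not called. They covered 28.8% of the segments in knockdown RELA replicate 2 and 31.7% in knockdown NFKB2 replicate 2. How far this raised the control-only counts was not tested.

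The 4 libraries of an antibody shared 30 regions for RELA (0.191%, against 0.0375% on all sequences), 27 for RELB (0.174%, against 0.0301%) and 355 for NFKB2 (1.83%, against 0.324%). Regions of a single library made up 75.3% for RELA, 73.1% for RELB and 64.4% for NFKB2, against 88.4%, 88.7% and 81.9% on all sequences. With the 12 lists merged, 255 of 24709 regions (1.03%) were called in at least 9 libraries, against 0.11% on all sequences. Of these 255, 54 lay on CHR_HG76_PATCH, 28 on CHR_HSCHR15_4_CTG8 and 17 on CHR_HSCHR17_7_CTG4. A single region was called in all 12 libraries, at 31407506 to 31408530 of CHR_HSCHR15_4_CTG8, against 0.0016% of regions on all sequences. Its fold enrichment was 1.57 to 3.89, and its -log10 q was 0 in each library.

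The highest similarity was found between libraries that share condition and replicate number. Such libraries are called a preparation here, and the series lists 1 input for each. Bases covered in both lists over bases covered in either (the Jaccard index) averaged 0.109 over the 12 pairs within a preparation and 0.0552 over the other 54 pairs. The difference of 0.0533 was the highest of the arrangements obtained by exchanging replicate numbers within groups (exact one-sided permutation p = 0.0625, the smallest possible). On chromosomes the same means were 0.0405 and 0.0222. Pairs from different preparations of 1 condition averaged 0.0580 and pairs of different conditions 0.0538, a difference of 0.0042 (exact one-sided permutation p = 0.333, the smallest that 4 preparations allow). Without knockdown RELA replicate 1 and knockdown RELB replicate 1, pairs within a preparation ranged from 0.0935 to 0.153, and pairs of different conditions from 0.0543 to 0.0831. Pairs that included 1 of these libraries lay at 0.0129 to 0.0450.

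**Figure D2:**
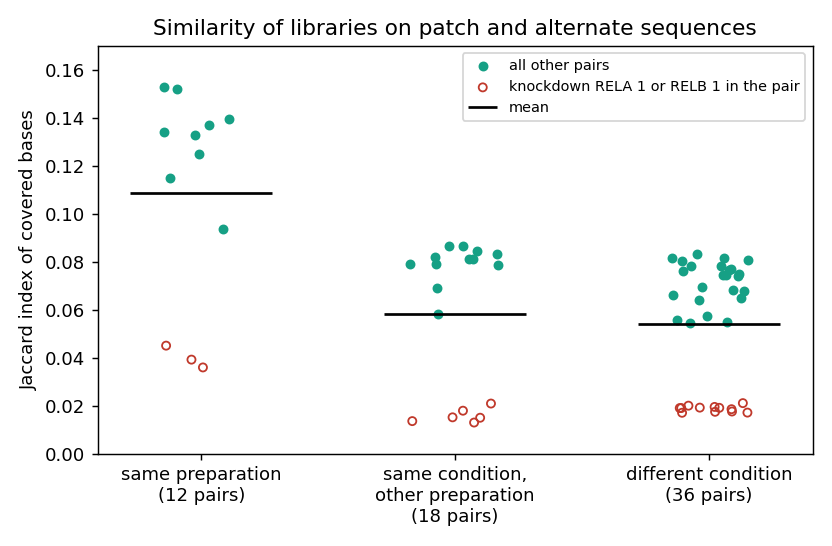
Each point is a pair of libraries and its height is the Jaccard index of the bases covered by intervals up to 5000 bp on patch and alternate sequences, with black lines at the means. Filled points for pairs of 1 preparation lie at 0.0935 to 0.153, above all other filled points, and open points mark pairs that include knockdown RELA 1 or RELB 1.

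The alternate loci name their chromosome, so their density can be set beside that of the same positions on the chromosome, whereas names of CHR_HG patches give no chromosome and were not matched. The segments of 270 sequences spanned 69.9 Mb and fell on 36.5 Mb of chromosomes where overlapping stretches were merged. Alternate segments held 8.98 to 81.5 intervals up to 5000 bp per Mb and library (median 69.2), and the same chromosome positions 12.5 to 128 (median 106). The density on alternate segments was lower in 12 of 12 libraries, with a median ratio of 0.650. The log2 ratios ran from -0.74 to -0.48 (median -0.62, exact two-sided permutation within libraries, p = 0.0156, the smallest that 12 libraries allow). With 1 value for each of the 4 preparations the mean was -0.63 (exact two-sided permutation p = 0.125, the smallest possible). Much of this difference came with the MHC. Its 7 haplotypes were each counted on the alternate side, whereas the same positions of chromosome 6 were counted once. This sparse locus thus weighed more in the alternate density, and the pooled ratio mixes that weight with the density of each copy. Without the MHC haplotypes the log2 ratios were -0.16 to 0.05 (median -0.10, a ratio of 0.930), below 0 in 11 of 12 libraries. Exact two-sided permutation gave p = 0.0156 over libraries and 0.125 over preparations, both again the smallest possible. With the MHC haplotypes included and 3 or more fragments at the summit, an alternative added after seeing the data, the median ratio was 0.605 in 10 libraries. This alternative was not run without the MHC haplotypes.

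The density of single sequences varied widely. Among those with a segment of at least 100 kb and any interval at the same chromosome positions, the median ratio of interval numbers was 0.785. Of 64 alternate sequences with a segment of at least 100 kb, 22 had as many intervals as the same chromosome positions or more, 24 had at least 0.5 times as many, 14 had fewer, and 4 lay where the chromosome had no interval at all. The ratio ran from 0.026 for CHR_HSCHR15_1_CTG8, with 7 intervals against 266, to 15.0 for CHR_HSCHR17_10_CTG4, with 314 against 21. CHR_HSCHR11_2_CTG1_1 and CHR_HSCHR4_6_CTG12 held 212 and 217 intervals where the chromosome held 0 in the 12 lists.

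**Figure D3:**
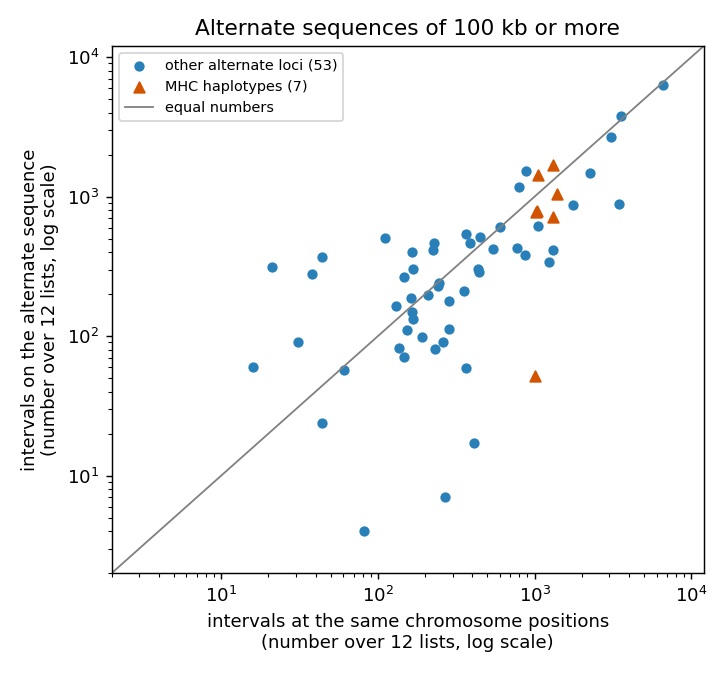
Each point is an alternate sequence whose segment spans 100 kb or more, with the intervals up to 5000 bp at the same chromosome positions on the x axis and those on the alternate sequence on the y axis, both summed over the 12 lists on log scales. Points lie on both sides of the line of equal numbers, APD being the MHC haplotype far below it, and 4 sequences with no interval on the chromosome cannot be shown.

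Chromosome positions with alternates were themselves sparse. For 55 of the 64 sequences the same chromosome positions held fewer intervals per Mb than the rest of that chromosome outside all stretches, with a median of 53.6% of the density of the rest. Sequences that overlap count the same positions more than once, the MHC haplotypes among them. Where 1 alternate covered the stretch the median was 72.8% (32 sequences, range 0 to 183%), where 2 or 3 overlapped it was 56.0% (19 sequences), and where 4 or more overlapped it was 12.6% (13 sequences, 0 to 40.4%). The alternates themselves held a median of 68.2%, 62.4% and 9.53% of the density of the rest in these classes. The medians of both copies fell in order from 1 to 4 or more alternates. The 7 MHC haplotypes overlap one another and belong to the last class of 13, so its medians rest largely on 1 locus. No median without them was computed. Sequences of a class share positions and libraries, and these are descriptions without a test.

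The MHC was among the stretches with the most versions. Its 7 haplotypes, from 28.6 to 33.6 Mb of chromosome 6, cover HLA-B and HLA-C, which present peptides to cytotoxic T cells, HLA-DRB1 and HLA-DQB1, which present them to helper T cells, TAP1 and PSMB9, which supply the peptides, and the cytokine genes TNF, LTA and LTB, well-known NF-κB targets. The NF-κB inhibitor-like gene NFKBIL1 and IER3, an immediate early gene, lie there as well. COX held the most intervals, 1686 over 12 lists, with 9 to 196 per library (median 170.5), and led in 11 of 12 libraries, in control RELB replicate 2 level with QBL. QBL followed with 1425 (15 to 168), then SSTO with 1051 (13 to 124), MANN with 784 (9 to 88), DBB with 777 (12 to 95) and MCF with 708 (6 to 89). APD held 52, with 0 to 11 per library, and was lowest in 12 of 12 libraries. Its segment spanned 4.22 Mb, but without the genome sequence it is not known how much of a segment reads can map to. QBL led in knockdown RELB replicate 1, which had 70 MHC intervals in all, and tied with SSTO for the next place in knockdown RELA replicate 1. In the other 10 libraries COX was followed by QBL and then SSTO or, in 1 library, MANN.

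Knockdown libraries listed 87, 70, 655, 401, 612 and 481 intervals on the haplotypes together and control libraries 663 to 734. As a share of the intervals on patch and alternate sequences this was 7.15 to 9.71% with knockdown and 9.17 to 10.2% in control, with overlap. The same positions on chromosome 6 held 11 to 194 intervals per library (median 155.5), which was 9.36 to 20.9% of the density on the rest of chromosome 6. COX alone exceeded the chromosome in 5 of 12 libraries. Chromosome and haplotypes summed reached 42.0 to 96.7% of the density of the rest (median 72.2%), lowest in the 2 libraries with intervals over 5000 bp, at 42.0% and 48.6%.

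Along the locus the copies did not carry intervals in the same places. In windows of 250 kb, COX had 474 intervals in the first window, where chromosome 6 had 267, QBL 1 and APD 0. In the window from 32.6 Mb, with HLA-DRB1 and HLA-DQB1, chromosome 6 had 211, DBB 187 and SSTO 120. Within 1 kb of the genes on chromosome 6, the 12 lists together held 24 intervals at HLA-DRB1, 10 at HLA-DQB1 and 5 at HLA-B. At HLA-C, TNF, LTA, LTB, NFKBIL1, IER3, TAP1 and PSMB9 they held 0. A count of 0 in these lists says that no interval was listed on this copy, and whether the factors were bound there cannot be read from it. Insertions and deletions shift positions on a haplotype against the chromosome, so windows correspond only roughly.

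**Figure D4:**
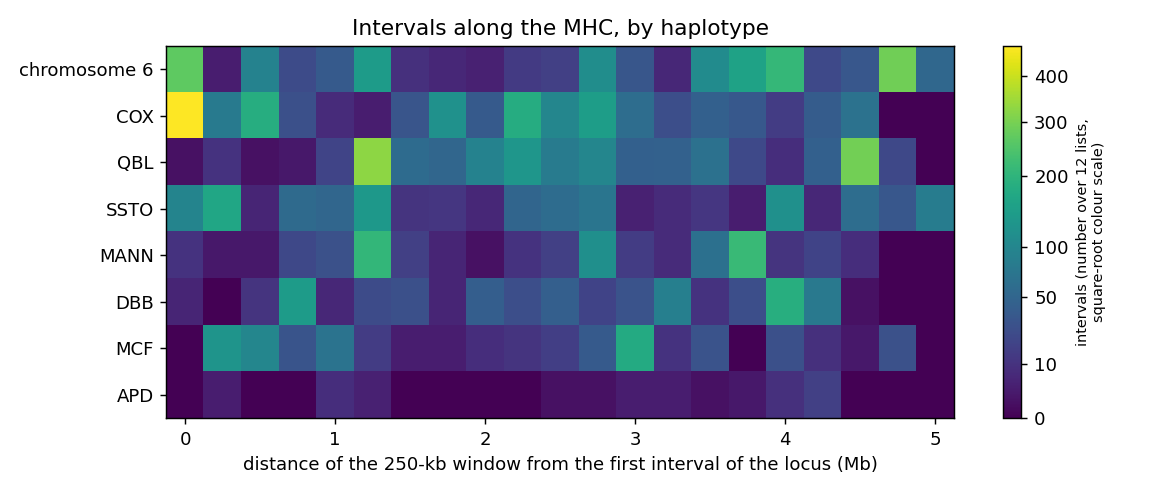
Rows are chromosome 6 and the 7 MHC haplotypes, columns are 250-kb windows by distance from the first interval of the locus, and colour gives the number of intervals up to 5000 bp over the 12 lists on a square-root scale. The bright windows differ between rows (COX has 474 in the first window, where QBL has 1), and APD is dark throughout.

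At the MAPT locus of chromosome 17, which has an inverted and a direct haplotype in humans, 2 alternates differed. CHR_HSCHR17_2_CTG5 held 1525 intervals in 1.26 Mb, 1.74 times the 876 at the same chromosome positions. CHR_HSCHR17_1_CTG5 held 340 in 1.73 Mb, 0.275 times the 1237 there. Both cover MAPT, which encodes the microtubule protein tau, KANSL1, a subunit of a histone acetyltransferase complex, and NSF, which acts in vesicle fusion. On the chromosome, the 12 lists held 233 intervals within 1 kb of MAPT, 192 at KANSL1 and 21 at NSF, genes of 134, 195 and 167 kb. CHR_HSCHR17_2_CTG5 had 27 to 158 intervals per library with knockdown and 137 to 188 in control.

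The leukocyte receptor complex of chromosome 19, with LILRB1 and the killer cell receptor gene KIR2DL4, held few intervals. The 5 sequences named for this complex had 466 in all, 4 to 177 each, and 2 KIR haplotype sequences had 2 and 3. On the longest of them, CHR_HSCHR19LRC_PGF1_CTG3_1, the density was 13.5% of that on the rest of chromosome 19, and the same chromosome positions had 21.8%. None of these intervals had q up to 0.05, against 0.205% of intervals up to 5000 bp on all patch and alternate sequences. With so few intervals, none is near that share.

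Intervals over 5000 bp occurred on patch and alternate sequences in 2 libraries, both of knockdown replicate 2. Knockdown RELA replicate 2 listed 486 on 107 sequences and knockdown NFKB2 replicate 2 listed 503 on 113 sequences. The same libraries listed 1332 and 1361 such intervals on chromosomes, and the other 10 libraries listed none on chromosomes, scaffolds or these sequences. Knockdown RELB replicate 2, of the same replicate number, had none.

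Nearly all of their length came from intervals that began at position 1 of the sequence. In knockdown RELA replicate 2, 41 such intervals spanned 2654 Mb, or 99.2% of the bases, and in knockdown NFKB2 replicate 2, 39 spanned 2628 Mb, or 99.1%. The longest was 233143273 bp on CHR_HG2232_PATCH in the RELA library and 195770197 bp on CHR_HSCHR3_6_CTG3 in the NFKB2 library. Their summits held 1 and 2 fragments, on backgrounds of 0.0377 and 0.0512. These intervals ended a median of 6442 and 4696 bp beyond the start of the first interval up to 5000 bp that any list had on the sequence. Of those on a sequence with such an interval, 38 of 41 and 34 of 38 ended beyond its start.

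The other 445 and 464 intervals over 5000 bp had a median length of 15.4 and 18.8 kb, and 443 and 457 of them lay within the segments. The longest spanned 3.14 Mb of the MHC haplotype APD, from 29612671 to 32754658, with the same start and end in both libraries and 2 fragments at the summit in the RELA library and 1 in the NFKB2 library. In all, 105 intervals over 5000 bp had the same start and end in both libraries, 10 of them from position 1. Without the intervals from position 1, 14.8 Mb was covered in both, which was 66.1% of the bases in the RELA library and 59.7% in the NFKB2 library. A single fragment lay at the summit of 387 (79.6%) and 385 (76.5%) of all intervals over 5000 bp. In the RELA library the highest had 3 fragments and none reached q of 0.05, and in the NFKB2 library the highest had 7 and 6 intervals reached it. The MHC haplotypes held 113 and 134 of these intervals, which covered 46.9% and 49.2% of the haplotype segments. The 2 libraries also had the lowest values among the 10 for the background of a list, 0.0377 and 0.0512 fragments. Control NFKB2 replicates 1 and 2 came close to the higher of these, at 0.0518 and 0.0536, and listed no interval over 5000 bp. Whether the background is related to the long intervals was not tested.

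**Figure D5:**
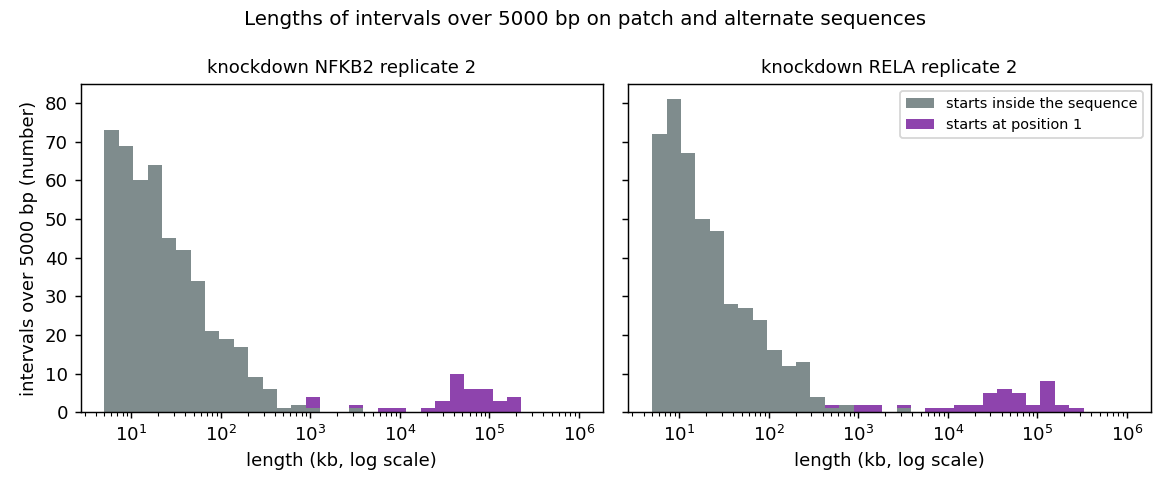
Histograms give the lengths of intervals over 5000 bp on patch and alternate sequences, on a log scale in kb, in the only 2 libraries that list any. Intervals that start inside a sequence are mostly shorter than 100 kb, and those that start at position 1 (39 in the NFKB2 library, 41 in the RELA library) form a separate group that reaches 195770 and 233143 kb.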

How the data were processed

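ChIP-Seq peak lists of 12 immunoprecipitation libraries were analysed as the authors deposited them. According to the labels and the study's methods, reads were mapped to hg38 with BWA 0.7.12 and peaks were called by library with MACS2 2.1.0, and CASAVA 1.8 and DiffBind are also named, without their role. How reads that match several sequences were treated is not given in the sources used here. The deposited columns hold an integer score, a fold enrichment ratio, -log10 p and -log10 q, beside positions and the summit. The lists give no read totals, so depth is known only as the background recovered from fold and p.

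Rows repeating a position were removed, keeping the one with the higher p-score. Intervals up to and over 5000 bp were treated separately. Intervals sharing 1 bp were merged to regions. Fragments n and background b were solved from fold = (n + 1)/(b + 1) and the Poisson p-value. Groups were compared by exact permutation over libraries, and differences from chromosomes by exchanging both kinds of sequence within libraries, and within the 4 sets that share condition and replicate number. Gene positions came from RefSeq on GRCh38.p14. No genome sequence was used here. Functions were tested on simulated data. Scripts ran under Python 3.11.15 with scipy 1.17.1, pandas 2.3.3, matplotlib 3.10.9 and numpy 2.4.6.

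Sequences were named by rule: the MHC haplotypes, the 10 others with most intervals up to 5000 bp and the sequence with the longest interval in a library with intervals over 5000 bp. Regions were named where they passed q of 0.05 in most libraries (10 regions) or in both libraries of 1 group and neither of the other. Other sequences were named after their values were seen: those with extreme density ratios or extra intervals where the chromosome had none, CHR_HSCHR17_1_CTG5, the KIR sequences and the region called in all libraries. Members, gene lists and rules were chosen with earlier results of these data known. Alternatives were a -log10 p of at least 2, a shorter limit of 1000 bp, covered bases, a stricter overlap, other segment extents, leaving out the MHC or single libraries, and the replicate number as a block. One item of the gene list is not reported here.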

Additional observations from a re-analysis of the deposited data

How the results depend on the processing

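For the number of intervals up to 5000 bp and for their share of a list, the exact permutation test used cannot go below 0.333 with 2 libraries per group, so stability there refers to direction only. With the replicate block the number gave log2 ratios of -1.51 (RELA), -1.52 (RELB) and -0.22 (NFKB2), and the share gave differences of -0.41, -0.087 and -0.040 percentage points. These equal the values without it by arithmetic, so the block could not change value, direction or call. Leaving out 1 library gave -2.73 to -0.30 (RELA), -2.95 to -0.08 (RELB) and -0.27 to -0.17 (NFKB2) in number. In share it gave -0.49 to -0.33, -0.12 to -0.056 and -0.16 to 0.075, the last sign turning without knockdown NFKB2 replicate 2. When only intervals with -log10 p of at least 2 were used, regions were fewer, 63, 59 and 438 knockdown-only and 755, 647 and 588 control-only for RELA, RELB and NFKB2. With the stricter overlap they were also fewer but within 1.5 times, 105, 77 and 584 knockdown-only and 969, 862 and 793 control-only. With 1 library left out, which was added after seeing the data, its group was called from the 1 library that remained, so that fewer conditions had to be met. Knockdown-only regions then ranged from 169 to 3377 (RELA, the highest without knockdown replicate 1), from 129 to 3578 (RELB, likewise) and from 1010 to 3734 (NFKB2, the highest without knockdown replicate 2). Control-only regions ranged from 1293 to 5439 (RELA), 1162 to 4905 (RELB) and 1391 to 4602 (NFKB2), the highest without a control library in each. The lower density on alternate segments and the higher share with q up to 0.05 passed 0.05 under each alternative that counts libraries as independent. With single libraries left out the values were -0.62 and 2.98 to 2.99, but the density ratio was -0.10 without the MHC haplotypes. In this test p is at its smallest once all or nearly all libraries share a sign, whatever the size of the ratios. It was 0.0156 with 12 libraries and 0.031 with fewer (exact two-sided permutation within libraries). Leaving out a library could thus not fail 0.05, and both results show a shared direction only. With 1 value for each of the 4 preparations, which was added after seeing the data, neither passed (-0.63 and 2.84, exact permutation p = 0.125, the smallest possible), since a test over 4 units cannot. Of 128 alternative values, 107 kept direction and call, or a count within 1.5 times. Those of the replicate block are among them and could not differ. For number, share of a list and similarity the smallest possible p lies above 0.05, so only the direction could change. For density and the share with q up to 0.05, leaving out 1 library could not change the call. The tally is thus in large part fixed by the tests and is no measure of robustness. The depth of the libraries is not in the lists, and at 1 or 2 fragments per summit a region not listed in a library cannot be read as unbound.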
